A study of Mus musculus with 8 samples.

Results

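Renin-angiotensin genes were followed in kidney RNA of NZBWF1 mice, a cross of the NZB and NZW strains that develops lupus-like nephritis with age. Of 9 genes listed for the system by symbol, 8 were found, each on 1 row of the array table of 22206 rows: Agt, Ace, Agtr1a, Agtr1b, Agtr2, Enpep, Mme and Atp6ap2. Renin itself (Ren1) was not analysed here, because no row was annotated with its symbol, gene identifier or RefSeq transcript. One group was 4 mice aged 8 weeks (replicates 1 to 4) and the other 4 mice aged 28 weeks (replicates 6 to 9). Kidney total RNA of each mouse was hybridised to 1 Clariom S Mouse array. All 8 mice carried the same NZBWF1 background, and the labels name no treatment, allele or sex. Age and disease course therefore cannot be told apart. Values are log2 expression values after robust multi-array averaging (RMA), and the difference is always 28 weeks minus 8 weeks.

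Renin cleaves angiotensinogen to angiotensin I, and angiotensin-converting enzyme trims that peptide to angiotensin II. Angiotensin II constricts vessels and drives sodium retention mainly through the AT1 receptor, of which the mouse has a pair of gene copies, Agtr1a and Agtr1b. Membrane peptidases of the tubule and glomerulus then shorten or inactivate the peptides, so the kidney holds precursor, enzymes, receptors and degrading peptidases in one organ.

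None of the 8 measured genes passed the test for a difference between the ages. No gene reached an adjusted p under 0.05 (limma with Benjamini-Hochberg adjustment over all rows), against 0.968% of all rows. None passed an unadjusted p under 0.05 either, against 15.0% of all rows. The 4 values of one age overlapped those of the other for all 8 genes, while 8.71% of all rows had groups that did not overlap. The log2 differences lay between -0.22 and 0.07, with a median of -0.05 and a median absolute size of 0.06, beside -0.01 and 0.18 over all rows. A missed threshold does not show that levels were equal, and the 95% intervals given for each gene below state which sizes remain possible. These bounds hold for the main fit of all 8 arrays, and some alternative fits gave wider intervals. At the spread of these genes a call would have needed a fold of 1.59 for Ace, the least, and 2.3 for Agtr1b, the most.

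**Figure D1:**
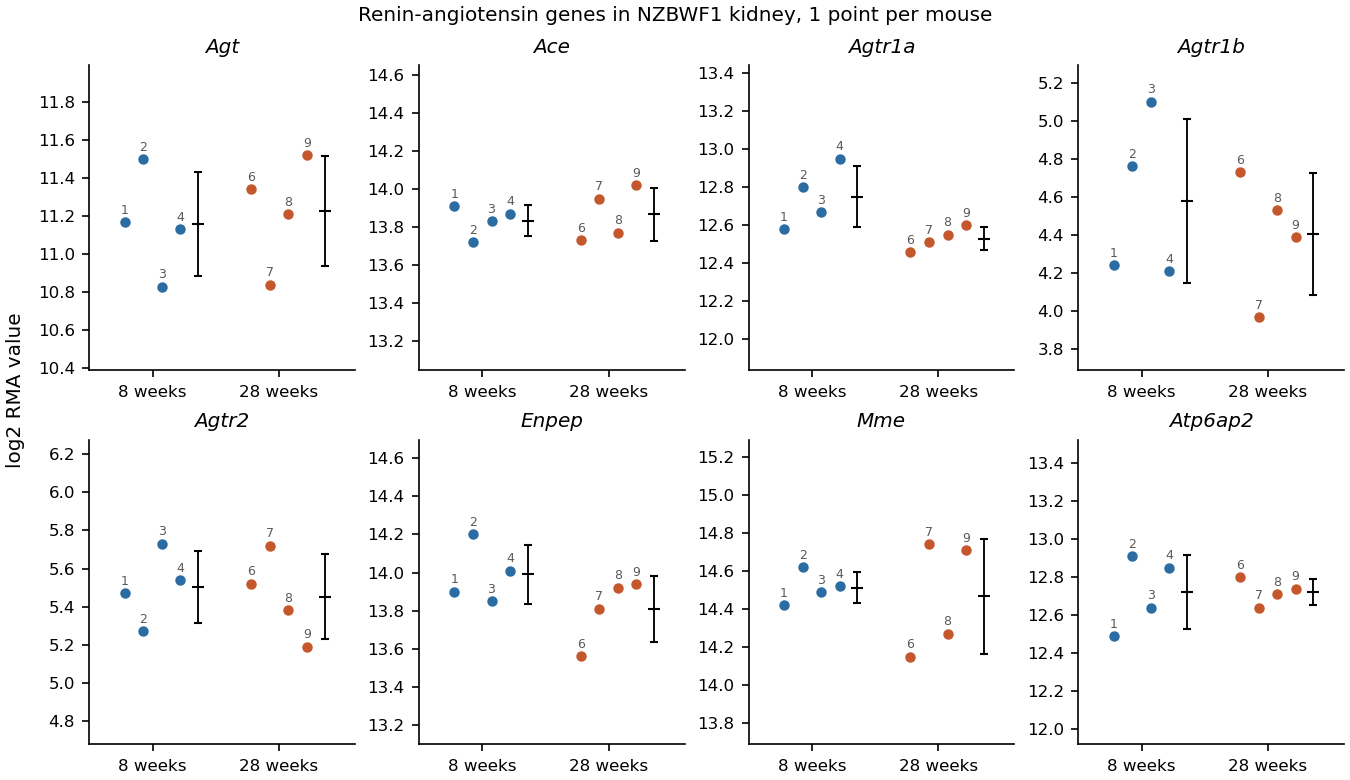
Log2 RMA values of the 8 measured renin-angiotensin genes in each mouse (points, numbered by replicate, 8 weeks in blue and 28 weeks in orange), with the group mean and SD as black bars. Every panel spans the same log2 width on its own axis. In all 8 genes the groups overlap, and the least overlap is in Agtr1a, where only 28-week replicate 9 (12.60) lies above the lowest 8-week value (12.58).

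The arrays of one age were not all alike. On the first principal component 28-week replicate 7 scored -12.9, among the 8-week arrays at -39.5 to -7.66, while replicates 6, 8 and 9 scored 31.8 to 59.9. On the second, 8-week replicate 1 scored 65.1 and the other arrays -27.8 to 15.3. The mean of 9 leukocyte markers was 5.75 to 6.01 at 8 weeks, 6.09 in 28-week replicate 7 and 8.02 to 9.17 in the other 28-week mice, and all 9 differences were positive. The mean of 10 proximal tubule markers was 15.01 to 15.10 at 8 weeks and 14.13 to 14.56 at 28 weeks, with all 10 differences negative. At 8 weeks their group means ran from 19.36 for Kap to 5.41 for Slc7a13, a dim row. The means were 7.23 to 7.88 and 7.47 to 8.10 for 6 mesangial and pericyte markers, 8.00 to 8.75 and 7.91 to 8.24 for 5 podocyte markers, and 7.49 to 8.85 and 7.52 to 8.71 for 6 vascular smooth muscle markers. They were 10.12 to 10.15 and 10.10 to 10.70 for 6 endothelial markers, and 9.53 to 10.21 and 9.49 to 9.87 for 6 collecting duct markers. For 6 thick limb and distal tubule markers they were 13.70 to 13.99 and 12.60 to 13.74. That list was mixed, with 2 differences positive, Slc12a1 (0.99) and Umod (0.22). Calb1 (-2.71), Pvalb (-2.42), Slc12a3 (-0.68) and Nos1 (-0.11) were negative. Adrenal cortex markers, looked at because the adrenal gland also responds to angiotensin II, were dim in both groups, with means over 6 genes from 3.85 to 4.11 per array. In whole kidney, fewer cells of a type and less RNA per cell cannot be told apart, and the part of these shifts in the values below was not tested. Without both 8-week replicate 1 and 28-week replicate 7, none of the 8 renin-angiotensin genes was called and none had an unadjusted p under 0.05, although 6.23% of all rows were called.

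Agt encodes angiotensinogen, the precursor that the liver secretes and that the proximal tubule also makes. At 8 weeks its log2 values were 11.17, 11.50, 10.83 and 11.13 in replicates 1 to 4, and at 28 weeks they were 11.34, 10.84, 11.21 and 11.52 in replicates 6 to 9. The lowest value of each age (replicates 3 and 7) and the highest (replicates 2 and 9) nearly coincided. The means were 11.16 ± 0.27 (SD, n = 4) and 11.23 ± 0.29 (SD, n = 4), a log2 difference of 0.07 with a 95% interval of -0.36 to 0.50 (adjusted p = 0.918). In this fit the interval excludes a rise above 1.41-fold and a fall beyond 1.28-fold. The interval was -0.25 to 0.66 without both 8-week replicate 1 and 28-week replicate 7, and -0.49 to 0.43 without 28-week replicate 9. The sign of the difference was not stable: it turned to -0.04 without 8-week replicate 3 and to -0.03 without 28-week replicate 9.

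Ace encodes angiotensin-converting enzyme, a membrane peptidase of the proximal tubule brush border and of endothelium. Its values were 13.91, 13.72, 13.83 and 13.87 at 8 weeks and 13.73, 13.95, 13.77 and 14.02 at 28 weeks. All 8 arrays lay within 0.30 on the log2 scale, the narrowest range of the 8 genes. The means were 13.83 ± 0.08 (SD, n = 4) and 13.87 ± 0.14 (SD, n = 4), a difference of 0.04 with an interval of -0.26 to 0.33 (adjusted p = 0.942), which bounds a rise at 1.26-fold and a fall at 1.2-fold. The sign turned, to -0.03, with each array centred on its median, and it also turned without 8-week replicate 2 (-0.00) or 28-week replicate 9 (-0.02).

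Of the receptors, Agtr1a, the main AT1 receptor gene of the mouse kidney, had the smallest p of the 8 genes. Its values were 12.58, 12.80, 12.67 and 12.95 at 8 weeks and 12.46, 12.51, 12.55 and 12.60 at 28 weeks. The 28-week mice lay close together at the lower end, and 3 of the 4 were below every 8-week mouse. The means were 12.75 ± 0.16 (SD, n = 4) and 12.53 ± 0.06 (SD, n = 4), a log2 difference of -0.22 (1.16-fold lower) with an interval of -0.52 to 0.08 (adjusted p = 0.509). An exact two-sided permutation test over the 70 arrangements of the mice gave p = 0.0571, where the smallest possible is 0.0286. Leaving out any 1 of the 8 arrays kept the difference negative (-0.28 to -0.15), and its adjusted p was 0.276 to 0.571 under the alternatives other than leaving out 1 array. Replicate 7, with the lowest leukocyte marker mean of the 28-week mice, had an Agtr1a value (12.51) between those of replicates 6 and 8. The part of leukocyte content in the Agtr1a values was not tested.

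Agtr1b and Agtr2 gave dim rows. Agtr1b, the second AT1 gene copy, lay between 4.21 and 5.10 at 8 weeks and between 3.97 and 4.73 at 28 weeks, at the 28th percentile of row means. Its difference was -0.17 with an interval of -0.70 to 0.36 (adjusted p = 0.816), and without 8-week replicate 3, the highest mouse, it was 0.00. Agtr2, the gene of the AT2 receptor, which opposes many AT1 effects and is best known from fetal tissue, lay between 5.27 and 5.73 at 8 weeks and between 5.19 and 5.72 at 28 weeks, at a percentile of 43.4. Its difference was -0.05 with an interval of -0.41 to 0.31 (adjusted p = 0.932). It turned to 0.03 without 8-week replicate 3 and to 0.04 without 28-week replicate 9. RMA gives no detection call, so neither gene can be said to be present or absent, and Agtr1a and Agtr1b are near-identical copies, so signal shared between their probes is possible. Agtr1b was the only gene of the 8 with a range above 1 log2 unit over the 8 arrays (1.13). The rows most like it in centred values were Pax7 and Jaml, with root-mean-square differences of 0.11 and 0.13 over 8 arrays, also dim rows with means of 3.77 and 5.13.

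The degrading peptidases Enpep and Mme were among the brightest rows of the table, at percentiles of 96.4 and 97.4. Enpep encodes aminopeptidase A, which removes the first residue of angiotensin II to give angiotensin III. Its values were 13.90, 14.20, 13.85 and 14.01 at 8 weeks and 13.56, 13.81, 13.92 and 13.94 at 28 weeks. Replicate 6 was the lowest, and the other 28-week mice lay below the middle of the 8-week range. The means were 13.99 ± 0.16 (SD, n = 4) and 13.81 ± 0.17 (SD, n = 4), a log2 difference of -0.18 with an interval of -0.51 to 0.15 (adjusted p = 0.641). In this fit the interval excludes a fall beyond 1.42-fold, but it was -0.61 to 0.19 without both 8-week replicate 1 and 28-week replicate 7. The difference kept its sign in all 8 fits that left out 1 array (-0.23 to -0.10).

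Mme encodes neprilysin, an endopeptidase of the brush border and of podocytes that cleaves angiotensins, natriuretic peptides and kinins. Its values were 14.42, 14.62, 14.49 and 14.52 at 8 weeks and 14.15, 14.74, 14.27 and 14.71 at 28 weeks. The 28-week mice fell on both sides of the 8-week range, with replicates 6 and 8 below it and replicates 7 and 9 above it. The SD was 0.08 at 8 weeks and 0.30 at 28 weeks (n = 4 each), and whether this spread differed was not tested. The means were 14.51 and 14.47, with a difference of -0.04 and an interval of -0.42 to 0.33 (adjusted p = 0.942). It turned to 0.06 without 28-week replicate 6 and to 0.02 without 28-week replicate 8. Leukocyte markers were high in replicates 6, 8 and 9, and their part in the Mme values was not tested.

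Atp6ap2 encodes the (pro)renin receptor, which is also an accessory subunit of the vacuolar proton pump. Its values were 12.49, 12.91, 12.64 and 12.85 at 8 weeks and 12.80, 12.64, 12.71 and 12.74 at 28 weeks. The 28-week mice all lay inside the 8-week range. Both means were 12.72, with SDs of 0.19 and 0.07 (n = 4 each), and the difference was 0.00 with an interval of -0.31 to 0.31 (adjusted p = 1). A change beyond 1.24-fold in either direction lies outside the interval.

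**Figure D2:**
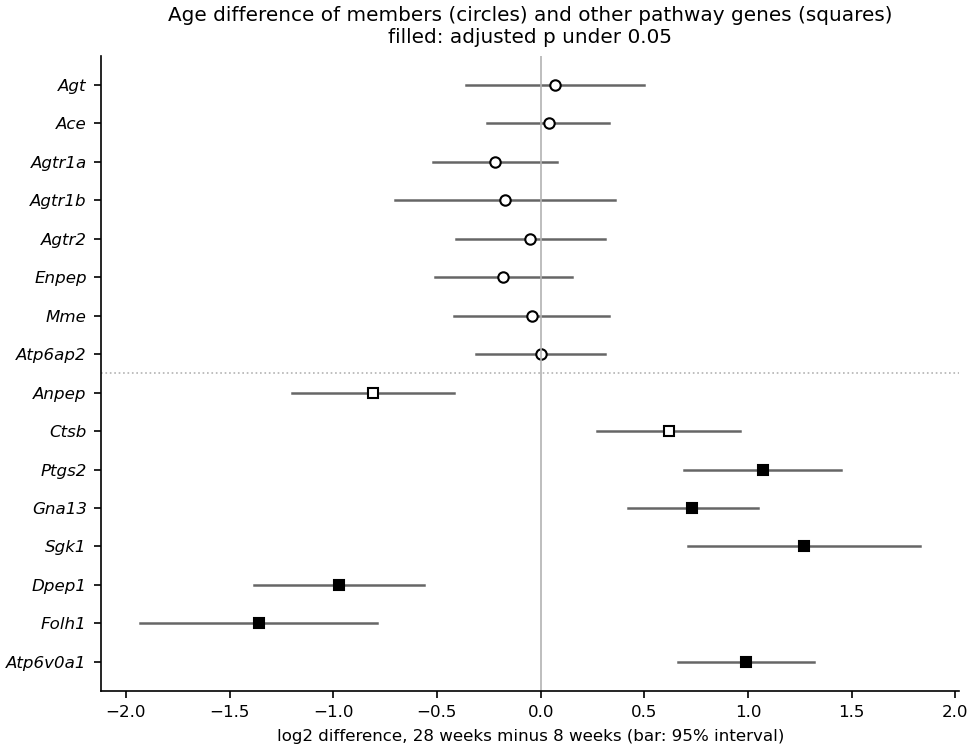
Log2 difference between the ages (28 weeks minus 8 weeks) with its 95% interval from limma for the 8 measured renin-angiotensin genes (circles) and for 8 other genes of the pathway lists (squares), filled where adjusted p is under 0.05. All 8 circles have intervals that cross 0, and none of the squares does. The squares were named by the size of their p, so their distance from 0 follows from that choice. Kng1 and Cpn1, named by the same rule, are not drawn, and the interval of Cpn1 (-0.12 to 1.42) crosses 0.

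The sequence just upstream of the start site is shown for 3 genes with different parts in the system, the precursor Agt, the converting enzyme Ace and the receptor and pump subunit Atp6ap2, as a reference for the members described above. Sequences are the 250 bases before the annotated start in RefSeq (GRCm38.p6), 5′ to 3′ on the gene's strand. Capitals mark 3 motifs on either strand, the TATA box core TATAAA, the CCAAT box letters CCAAT and the GC box letters GGGCGG, and a run of capitals can hold matches that overlap or adjoin. The windows are chr8:124569707-124569956 on the minus strand for Agt, chr11:105967698-105967947 on the plus strand for Ace and chrX:12587509-12587758 on the plus strand for Atp6ap2.
Agt: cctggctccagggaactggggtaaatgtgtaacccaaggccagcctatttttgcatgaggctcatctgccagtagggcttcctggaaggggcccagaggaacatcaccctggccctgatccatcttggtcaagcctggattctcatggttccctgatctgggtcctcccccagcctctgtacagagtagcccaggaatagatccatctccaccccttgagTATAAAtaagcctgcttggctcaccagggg
Ace: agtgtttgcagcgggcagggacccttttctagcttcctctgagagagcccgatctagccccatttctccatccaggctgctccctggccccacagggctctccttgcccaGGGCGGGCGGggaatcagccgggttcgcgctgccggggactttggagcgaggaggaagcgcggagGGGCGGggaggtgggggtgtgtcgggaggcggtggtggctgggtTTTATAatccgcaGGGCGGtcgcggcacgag
Atp6ap2: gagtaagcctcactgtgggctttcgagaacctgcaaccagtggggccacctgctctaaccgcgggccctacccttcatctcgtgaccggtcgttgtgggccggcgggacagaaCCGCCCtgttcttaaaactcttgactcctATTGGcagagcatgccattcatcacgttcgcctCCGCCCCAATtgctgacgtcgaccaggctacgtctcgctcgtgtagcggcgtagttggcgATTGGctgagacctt
Agt and Ace each held 1 TATAAA match, whose first base lay at -30 and -31 from the start, and Ace also held 4 GGGCGG matches. Atp6ap2 held no TATAAA match, 3 CCAAT and 2 GGGCGG matches. RefSeq windows were found for 7 of the 8 measured genes, with 10 windows in all because Ace and Mme have several starts. TATAAA was in 4 of the 10 windows (1 each of Agt, Ace, Agtr1b and Enpep), CCAAT in 7 and GGGCGG in 5. Windows of one gene can overlap. Counted in the same way, per window, of all 32851 windows of this length, 12.4% held TATAAA, 33.8% CCAAT and 32.7% GGGCGG. A match describes letters only and was not tested as a binding site.

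The other enzymes and receptors of the system gave the same kind of result. Of 15 measured genes none passed over all rows, against 0.968% of all rows. An unadjusted p under 0.05 was found for 2, Anpep and Ctsb, against 15.0% of all rows. Of the differences 4 were positive, and the median was -0.02. Anpep encodes aminopeptidase N, the brush border enzyme that acts on angiotensin III after aminopeptidase A. Its values were 15.79, 15.28, 15.24 and 15.40 at 8 weeks and 14.64, 14.94, 14.45 and 14.44 at 28 weeks, without overlap. The log2 difference was -0.81 with an interval of -1.20 to -0.42, and adjusted p = 0.0643. It was called without 28-week replicate 7 (adjusted p = 0.0161), and also when 8-week replicate 1 was left out with it (adjusted p = 0.0166), with array weights (0.0257) and with trend and robust variance options (0.0268). Ctsb, the gene of the lysosomal protease cathepsin B, which can process prorenin, was 16.23 ± 0.12 (SD, n = 4) at 8 weeks and 16.84 ± 0.23 (SD, n = 4) at 28 weeks, a difference of 0.62 (adjusted p = 0.0924). It was called under the same 4 settings (adjusted p = 0.0215, 0.0313, 0.0445 and 0.0353 in that order). Neither gene was called without any other single array, at adjusted p up to 0.203 for Anpep and 0.255 for Ctsb. Nor was either called with the other normalizations or the filter on dim rows, at adjusted p up to 0.0657 and 0.134. Mas1, the gene of the receptor for the shortened vasodilator angiotensin, differed by -0.01 on a dim row, at a percentile of 34.2. Prcp, the gene of a carboxypeptidase that trims angiotensin II, differed by -0.12. Both genes were chosen after their values were seen. Some other rows of the list were dimmer than that of Mas1, so the list median rests in part on dim rows. Ren2, Lnpep and Ctsd were not analysed here.

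**Figure D3:**
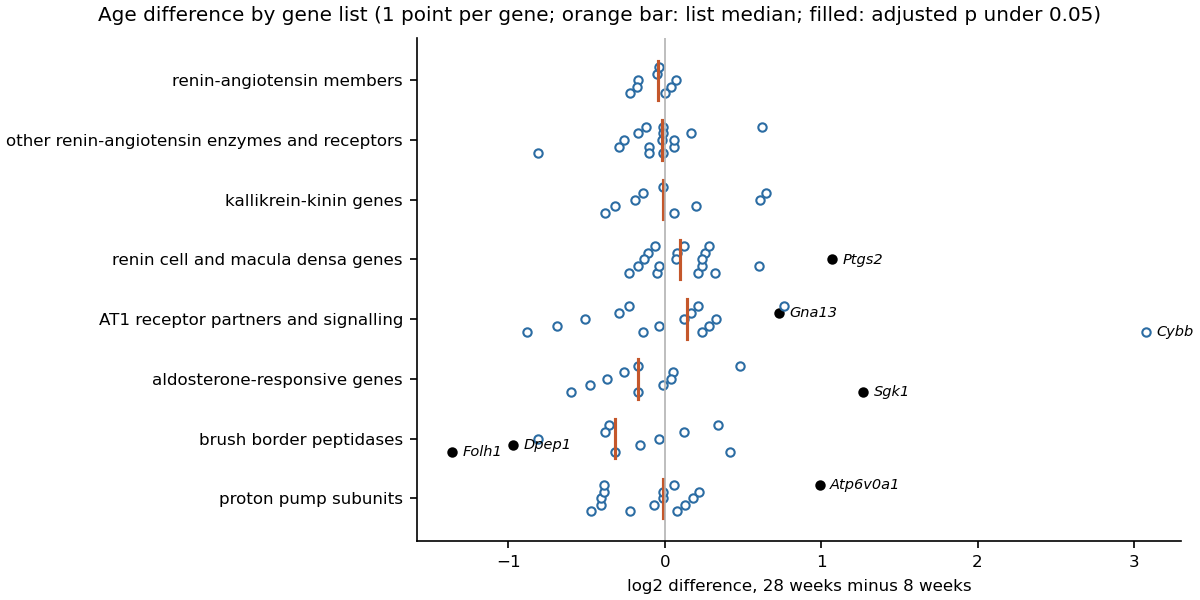
Log2 difference between the ages for each measured gene of the renin-angiotensin members and of 7 related lists (points), with the list median (orange bar) and filled points where adjusted p is under 0.05. The members stay within -0.22 to 0.07, and 6 genes of the other lists are filled, with differences from -1.36 (Folh1) to 1.27 (Sgk1).

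In the lists around the system, 6 of 93 measured genes passed the threshold, 4 higher and 2 lower at 28 weeks, against 0.968% of all rows. An unadjusted p under 0.05 was found for 25 of the 93, against 15.0% of all rows. The lists were chosen with earlier results of these data known, and these shares were not tested. The kallikrein-kinin list, whose peptides Ace and Mme degrade, had none of 9 past the threshold, 1 with an unadjusted p under 0.05 and a median difference of -0.01. Its smallest p were those of the kininogen gene Kng1 (0.61, adjusted p = 0.225, a dim row) and the carboxypeptidase N gene Cpn1 (0.65, adjusted p = 0.429). Among 18 genes of renin cells and the macula densa 11 had positive differences and 2 an unadjusted p under 0.05. The threshold was passed by 1, Ptgs2, which encodes the cyclooxygenase whose prostaglandins stimulate renin release. Its values were 4.80, 5.01, 5.21 and 5.16 at 8 weeks and 6.48, 5.81, 6.10 and 6.07 at 28 weeks (2.1-fold, adjusted p = 0.0309). All 4 older mice were above all younger ones, replicate 7 included, on a row that is dim at 8 weeks. Leukocytes also express Ptgs2, and the part of the higher leukocyte markers was not tested. Its call ended without each of the other 7 arrays, at adjusted p of 0.0581, 0.0981, 0.0674 and 0.0856 without 8-week replicates 1 to 4 and 0.0759, 0.0922 and 0.111 without 28-week replicates 6, 8 and 9. The list median was 0.10.

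Of 16 partners and signalling genes of the AT1 receptor 9 had positive differences and 6 an unadjusted p under 0.05, against 15.0% of all rows. The 1 gene past the threshold, against 0.968% of all rows, was Gna13, which encodes a G protein alpha subunit. It was 9.58 ± 0.11 (SD, n = 4) at 8 weeks and 10.31 ± 0.18 (SD, n = 4) at 28 weeks (1.66-fold, adjusted p = 0.0466). The call ended with arrays centred on their medians (adjusted p = 0.0636), with quantile normalization (0.0508) and with arrays centred on ribosomal protein genes (0.0759). It also ended without any 1 of the 4 8-week arrays or of 28-week replicates 6, 8 and 9 (adjusted p = 0.0813 to 0.155). Agtrap, the gene of a protein that promotes uptake of the AT1 receptor into the cell, had a difference of -0.69 (adjusted p = 0.17), beside -0.22 for Agtr1a itself. Cybb, the gene of the phagocyte NADPH oxidase, had the largest difference of the list, 3.08 (adjusted p = 0.0966), with 9.03 in replicate 7 and 12.58 to 13.28 in the other 28-week mice, as in the leukocyte markers. Both were chosen after their values were seen.

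Among 11 aldosterone-responsive genes 4 had an unadjusted p under 0.05, against 15.0% of all rows. Past the threshold, against 0.968% of all rows, was 1 gene, Sgk1. Sgk1 encodes a kinase that keeps the epithelial sodium channel at the membrane. It was 12.12 ± 0.49 (SD, n = 4) at 8 weeks and 13.39 ± 0.31 (SD, n = 4) at 28 weeks (2.41-fold, adjusted p = 0.0495), and the highest mouse was replicate 7 at 13.81. The call lies at the threshold. It ended with arrays centred on their medians (adjusted p = 0.0566) or on ribosomal protein genes (0.0627), and when 8-week replicate 1 and 28-week replicate 7 were both left out (0.0536). It also ended without any 1 of the 4 8-week arrays or of 28-week replicates 6, 8 and 9 (adjusted p = 0.0682 to 0.131). The median of the list was -0.16, with 7 of 11 differences negative.

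Enpep and Mme share the brush border with other peptidases. In a list of 11 brush border peptidases and related genes 2 passed the threshold, both lower at 28 weeks, against 0.968% of all rows. An unadjusted p under 0.05 was found for 5, against 15.0% of all rows. Of the 11 differences 8 were negative, with a median of -0.32. The 3 positive ones were Naalad2 (0.42, a dim row), Erap1 (0.34) and Lap3 (0.12). Not every gene of the list encodes a brush border peptidase, so these counts do not describe that class alone. Folh1, a glutamate carboxypeptidase gene, was 14.82 ± 0.24 (SD, n = 4) at 8 weeks and 13.46 ± 0.55 (SD, n = 4) at 28 weeks (2.57-fold lower, adjusted p = 0.044). Dpep1, a membrane dipeptidase gene, was 13.54 ± 0.23 (SD, n = 4) and 12.57 ± 0.29 (SD, n = 4) (1.96-fold lower, adjusted p = 0.044). Both calls ended without any 1 array other than 28-week replicate 7, that is without 8-week replicates 1 to 4 or 28-week replicates 6, 8 and 9, at adjusted p of 0.0614 to 0.159 for Folh1 and 0.0555 to 0.159 for Dpep1. That of Dpep1 also ended with arrays centred on ribosomal protein genes (adjusted p = 0.0522). The proximal tubule markers moved in the same direction, and their part was not tested.

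Of 15 proton pump subunits 6 had an unadjusted p under 0.05, against 15.0% of all rows. The threshold was passed by 1, against 0.968% of all rows. This was Atp6v0a1, which encodes an isoform of the membrane a subunit. Its values were 11.44, 11.81, 11.83 and 11.80 at 8 weeks and 12.79, 12.49, 12.76 and 12.79 at 28 weeks (1.98-fold, adjusted p = 0.024). The median of the list was -0.01, and 6 of 15 differences were positive. The call held without 8-week replicate 1 (adjusted p = 0.0446) and 28-week replicate 7 (0.00424). It ended without 8-week replicates 2, 3 and 4 (0.0695, 0.0661 and 0.0805) and 28-week replicates 6, 8 and 9 (0.0755, 0.0849 and 0.1).

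Differences taken within each array show how far members and related genes moved apart, in 4 pairs. The pairs were chosen after the values were seen, in part for genes whose groups did not overlap, so they are described with no test. Atp6v0a1 minus Atp6ap2, set to a mean of 0 at 8 weeks, was -0.10 to 0.19 at 8 weeks and 0.85 to 1.05 at 28 weeks, a shift of 0.99. Anpep minus Mme was -0.25 to 0.45 at 8 weeks and -1.19 to -0.42 at 28 weeks, a shift of -0.77. Anpep minus Enpep shifted by -0.63 and Agtrap minus Agtr1a by -0.47, and in both the groups overlapped.

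**Figure D4:**
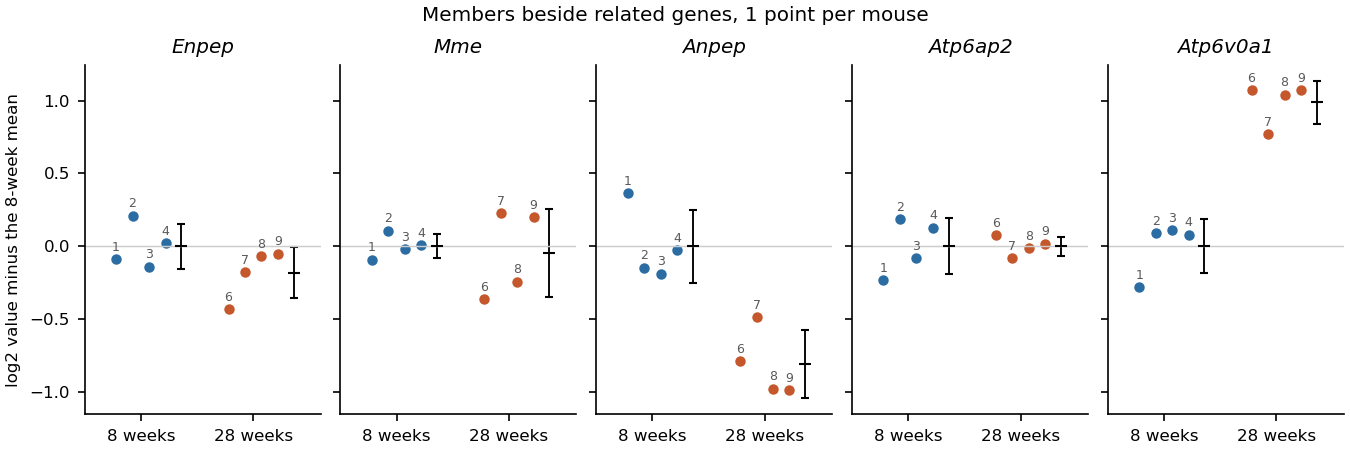
Log2 value of each mouse minus the 8-week mean of the gene for the members Enpep, Mme and Atp6ap2 and the related genes Anpep and Atp6v0a1 (points numbered by replicate, bars for mean and SD). The 3 members overlap between the ages, whereas the 28-week mice lie below all 8-week mice for Anpep (14.44 to 14.94 against 15.24 to 15.79) and above them for Atp6v0a1 (12.49 to 12.79 against 11.44 to 11.83).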

How the data were processed

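Clariom S Mouse arrays, 1-colour, measured kidney RNA of 8 NZBWF1 mice. The log2 values are those the authors deposited, made with RMA per the submitters' processing notes. Neither version nor settings of RMA are known here, and the unstated log base was taken as 2. RMA compresses folds, most for dim rows. Each array was treated as 1 mouse. All 22206 rows were fitted in limma (version 3.58.1, R 4.3.3) with lmFit and eBayes and Benjamini-Hochberg adjustment at 0.05. Rows were named by the platform annotation (19572 with 1 symbol, 2634 with none), and the brightest row would stand for a gene with several, which no member had. Members and gene lists were chosen with earlier results of these data known. Genes named outside the members were those past the threshold in each list, or the 2 with the smallest p, and Mas1, Prcp, Agtrap and Cybb, chosen after their values were seen. On simulated data of 22206 rows, 4.4%, 54.8% and 88.8% of genes changed by 0.5, 1 and 2 on the log2 scale were recovered. No batch was given in the sources used here. The number of arrays limits the precision. Alternatives were other normalizations, a filter on dim rows, variance options, array weights and arrays left out.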

Additional observations from a re-analysis of the deposited data

Results flagged for a closer look

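Of 36 groups of 4 mice examined for 18 named genes, 3 had a mouse far from the other 3, measured as its gap to the nearest divided by the range of the group. Chance flags about 1 in 20 groups. None of the 3 was in a renin-angiotensin member. Folh1 was 14.46 in 8-week replicate 1 and 14.93 to 14.95 in the other 8-week mice (ratio 0.959). Atp6v0a1 was 11.44 in 8-week replicate 1 and 11.80 to 11.83 in the others (ratio 0.923), and 12.49 in 28-week replicate 7 and 12.76 to 12.79 in the others (ratio 0.9). These are the same arrays that stand apart over all rows.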

How the results depend on the processing

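None of the 8 renin-angiotensin genes was called under any of the 15 limma alternatives that were run. The exact permutation test gave none an unadjusted p under 0.05. That outcome adds nothing to the overlap of the groups, because at these group sizes only groups that do not overlap can reach such a p. Agtr1b could not be tested with the dimmest 33.3% of rows left out. Leaving out 1 array gave differences from -0.04 to 0.20 for Agt, -0.02 to 0.08 for Ace, -0.29 to 0.00 for Agtr1b, -0.14 to 0.04 for Agtr2 and -0.14 to 0.06 for Mme, so the sign of each depended on single arrays. Centring each array on its median gave -0.03 for Ace and moved the median of all rows to -0.07. The number of called rows was 215, and 399 with trend and robust variance options, 873 with array weights, 1384 without both 8-week array 1 and 28-week array 7, and 25 to 1237 with 1 array left out. The 6 calls in the related lists became 3 with arrays centred on ribosomal protein genes, 11 with array weights, 10 without both arrays, and 0 to 10 with 1 array left out. The cause was not tested, except that leaving out arrays leaves fewer mice. No paired analysis was possible because the ages share no replicate numbers. No member had a further row to compare. The arrays have no detection call, which limits Agtr1b and Agtr2 most.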
